A study of Mus musculus with 416 samples.

Results

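Mitochondrial ribosomal protein genes are the nuclear genes for the proteins of the ribosome inside mitochondria. Most of their symbols begin with Mrpl, named for the large subunit, or Mrps, named for the small subunit. Members were the protein-coding genes whose symbol is Mrpl or Mrps followed by a number. The rule found 78 of the 46517 gene IDs in the deposited table, 49 with a large subunit symbol and 29 with a small subunit symbol. Subunits below were taken from the symbols alone and were not checked against the position of each protein in the ribosome. A further 5 symbols of the same form belong to processed pseudogenes and were not members. All 78 members passed the filter on low counts, so no member was left out of any test.

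RNA-seq was run on the striatum of 416 drug naïve J:DO mice, the Diversity Outbred stock, in which each animal is a different mosaic of the founder strains' genomes. The labels give each mouse a sex and an outcross generation of 21, 22 or 23. Generation 21 had 150 libraries (76 labelled female and 74 male), generation 22 had 60 and 59, and generation 23 had 72 and 75. All groups share the stock, the tissue and the absence of drug treatment, and each library is 1 mouse of a genotype of its own. Age is not given in the sources used here. Generation cannot be told apart from the cohort, the date of collection or anything else that changed between generations.

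The mitochondrial ribosome translates the few proteins encoded by mitochondrial DNA, all of them subunits of the oxidative phosphorylation complexes. Its RNAs come from mitochondrial DNA, while its proteins are made in the cytosol from nuclear genes and imported. Some of these proteins have a bacterial counterpart and others are found in mitochondrial ribosomes only. Neurons, the spiny projection neurons of the striatum among them, depend heavily on oxidative phosphorylation.

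Levels are in CPM, counts scaled to a common library size with edgeR's factors. Differences are log2 values from edgeR's quasi-likelihood test with sex and generation as terms. A gene was called where its p, adjusted by Benjamini-Hochberg over 22968 genes, was under 0.05. Total counts ran from 20331737 to 77458200 per library (median 43516282), and 2.95 to 7.18% of counts (median 4.61%) lay on mitochondrial DNA. By a low total or a low correlation with the other libraries, 29 libraries stood apart, 14, 6 and 9 in generations 21, 22 and 23. Another check found 29 libraries, 9, 14 and 6 per generation, whose Xist level went against the sex label. The tissue label was checked against 11 spiny neuron markers, whose summed level had a median of 7836, 7684 and 7154 CPM in the generations but was down to 202.7 CPM in the lowest library of generation 21, 1634 in that of generation 22 and 3949 in that of generation 23. Summed cortical excitatory neuron markers ran from 71.7 to 932.1 CPM (median 104.3) in generation 21, from 70.5 to 1174 (median 119.7) in generation 22 and from 72.2 to 1012 (median 255.5) in generation 23. Summed thalamic relay neuron markers had medians of 178.3, 184.4 and 183.8 CPM and highest values of 3993, 240.8 and 489.3 CPM. No marker of any list was at 0 in every library. In bulk tissue, fewer cells of a type and less RNA per cell cannot be told apart.

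Together the members took between 0.111% and 0.155% of a library's counts, with a median of 0.127%. Per kilobase of summed exon, a rough allowance for length, Mrps21 was highest at 26.8 CPM per kilobase. It was followed by Mrps33 at 19.6, Mrpl10 at 14.7, Mrpl53 at 14.1 and Mrpl41 at 14.0. The lowest levels per kilobase were those of Mrpl32 at 1.47, Mrpl23 at 1.75, Mrps30 at 2.04 and Mrps16 at 2.32. Summed exon merges the exons of all annotated transcripts, so it can exceed the length of the mRNA made. For Mrpl23 it was 4883 bases, against 692 for a coding transcript of the gene. Differences in level per kilobase may therefore come from the annotation and are not a measure of mRNA copies. The members named here, at the ends of this order, were picked after their values were seen. Of the Mrpl53 exon sequence, 88% lies within a same-strand neighbour, Gm42688, so counts of these 2 genes may not have been separable.

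Most members were lower in generations 22 and 23 than in generation 21, by small amounts. Between generations 23 and 21, 50 members fell, 8 rose and 20 were not called, a share of 74.4% called. The background was high: 58.3% of all genes tested were called in this comparison, 32.6% lower and 25.8% higher. The median member difference was -0.053 on the log2 scale, against -0.017 over all genes tested, and no member differed by more than 0.2. Protein-coding genes with up to 2682 bases of summed exon, where the median member length of 2394 bases falls, had a median of -0.083. Members ran from 607 to 8631 bases, so this group covers only a part of them. The median was -0.046 for genes of 2683 to 4296 bases, -0.020 for 4297 to 6648 and 0.020 for 6649 or more. All 50 members that fell had the same sign in female and male libraries fitted apart, as did 7 of the 8 that rose. The exception was Mrpl3, at -0.003 in females and 0.077 in males. Libraries of both sexes were in the fit that gave the calls, so shared signs are not an independent check. Between generations 22 and 21, 46 members fell and 5 rose, against 46.6% of all genes called (24.5% lower, 22.1% higher). The median member difference there was -0.057, against -0.008 over all genes tested and -0.071 among protein-coding genes of up to 2682 bases. In the longer groups, in order of length, the median was -0.038, -0.017 and 0.021. Both comparisons use the same generation 21 libraries, so they are not independent of each other.

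**Figure D1:**
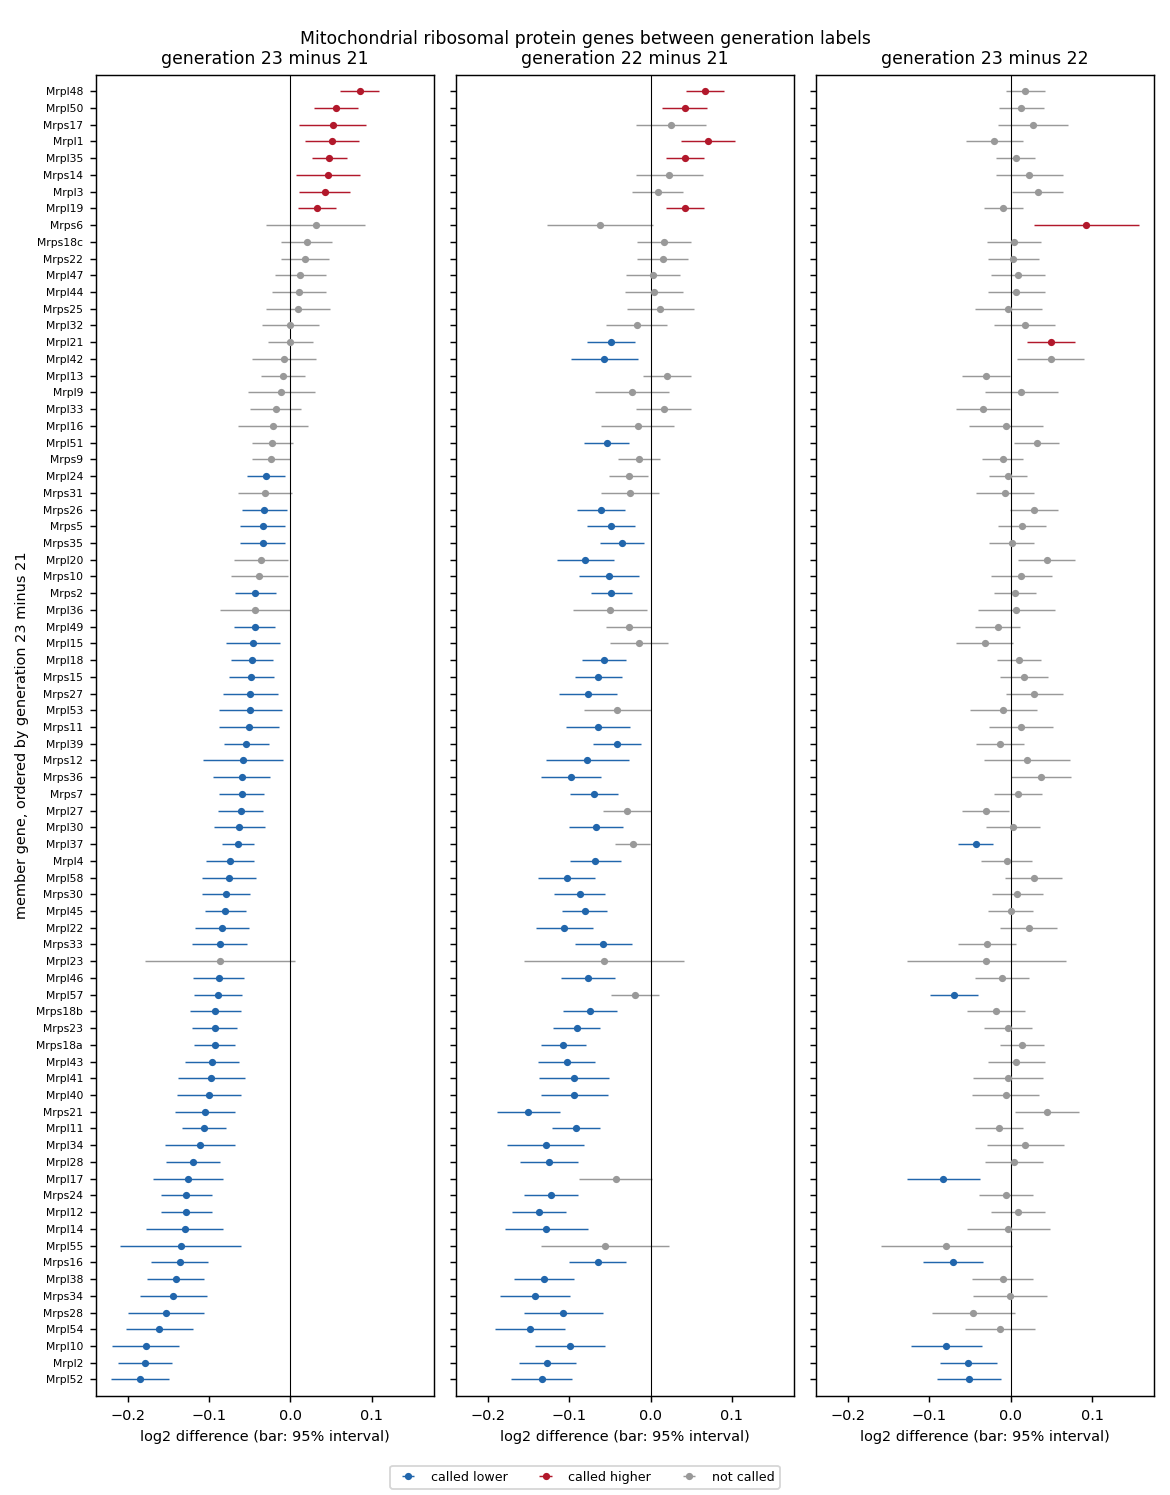
Log2 difference of each of the 78 members (rows) between generation labels in 3 panels, 23 minus 21, 22 minus 21 and 23 minus 22. Points are edgeR estimates, bars are 95% intervals, blue and red mark members called lower and higher and grey those not called. In the left panel 50 members are called lower and 8 higher, and in the right panel 7 are lower and 2 higher.

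The 3 members that fell most all belong to the large subunit. Mrpl52, a mitochondria-specific large subunit protein, ran from 6.45 to 14.3 CPM (median 9.28) in generation 21, from 6.53 to 10.7 (median 8.5) in generation 22 and from 6.13 to 10.7 (median 8.18) in generation 23. The ranges overlapped up to 10.7 CPM, and above that level lay libraries of generation 21 alone. Its mean was 9.35 ± 1.11 CPM (SD, n = 150) in generation 21 and 8.22 ± 0.835 in generation 23, a fall of 12.0%. The log2 difference was -0.185 (SE 0.018, edgeR adjusted p = 3.98e-20) between generations 23 and 21 and -0.134 between generations 22 and 21.

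Mrpl2, the homologue of the bacterial protein at the peptidyl transferase centre, had CPM values of 8.79 to 15.2 (median 11.1), 7.49 to 12.7 (median 10.3) and 7.89 to 12.8 (median 9.93) in generations 21, 22 and 23. Its log2 difference was -0.179 (SE 0.017, edgeR adjusted p = 2.52e-22) between generations 23 and 21. Mrpl10, which forms the base of the flexible stalk that binds translation factors, ran from 20 to 38.3 CPM (median 26.4), from 19 to 33.1 (median 24.7) and from 17.7 to 30.7 (median 23.5). Its log2 difference was -0.178 (SE 0.021, edgeR adjusted p = 4.89e-15). For both genes the generation 21 libraries reached highest and the generation 22 median lay between the other medians, with overlapping ranges.

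Mrpl12, the stalk protein that contacts the translation factors, ran from 12.8 to 26.2 CPM (median 17.1) in generation 21, from 12.2 to 18.8 (median 15.7) in generation 22 and from 12.5 to 18.3 (median 15.8) in generation 23. The highest generation 21 libraries lay above every library of the other generations. Mrpl12 fell by 0.137 on the log2 scale (SE 0.017, edgeR adjusted p = 7.97e-13) between generations 22 and 21. Mrpl54 and Mrpl38, both mitochondria-specific, fell by 0.161 (SE 0.021) and 0.141 (SE 0.018) between generations 23 and 21.

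Among the 29 members with a small subunit symbol, 20 fell and 2 rose between generations 23 and 21 (median -0.049). Between generations 22 and 21, 21 fell and none rose, and 0 rose at an unadjusted p under 0.05 in edgeR and 0 in DESeq2. Among the 49 members with a large subunit symbol, 30 fell and 6 rose between generations 23 and 21 (median -0.061). By origin, 26 of 46 members with a bacterial homologue fell and 6 rose (median -0.047), while 21 of 29 mitochondria-specific members fell and 2 rose (median -0.064). These classes were not tested against each other. Mrps28, Mrps34 and Mrps16 led the small subunit. Mrps28 had medians of 3.86, 3.62 and 3.49 CPM in the generations and fell by 0.153 (SE 0.024, edgeR adjusted p = 2.81e-09). Mrps34, a mitochondria-specific protein, had medians of 8.0, 7.28 and 7.36 CPM and fell by 0.144 (SE 0.021, edgeR adjusted p = 2.87e-10). Of the Mrps34 exon sequence 37% lies within Nme3 on the same strand and 63.4% opposite Mapk8ip3, so its counts may include reads of these genes. Mrps16 had medians of 7.0, 6.67 and 6.34 CPM and fell by 0.136 (SE 0.018, edgeR adjusted p = 6.5e-13). Between generations 22 and 21, Mrps21 fell most of all members, from a median of 21 CPM (15 to 31.5) to 18.9 (13.5 to 24.4), a log2 difference of -0.150 (SE 0.02, edgeR adjusted p = 6.96e-12).

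The members that rose did so by less. Mrpl48, a mitochondria-specific large subunit protein, ran from 34.4 to 51.5 CPM (median 43.7) in generation 21, from 32.8 to 52.9 (median 46.2) in generation 22 and from 37.2 to 55.8 (median 46.6) in generation 23. The ranges overlapped, with the later generations shifted upward. Its log2 difference was 0.085 (SE 0.012, edgeR adjusted p = 9.7e-12) between generations 23 and 21 and 0.067 between generations 22 and 21. Mrpl1, the protein of the L1 stalk near the tRNA exit site, had medians of 15.4, 16.1 and 16 CPM. It rose by 0.071 (SE 0.017, edgeR adjusted p = 0.000289) between generations 22 and 21 and by 0.051 between generations 23 and 21. Mrpl50 rose by 0.056 (SE 0.014) and Mrpl35 by 0.048 (SE 0.011) between generations 23 and 21. The other members that rose there were Mrps17 at 0.052, Mrps14 at 0.046, Mrpl3 at 0.042 and Mrpl19 at 0.033.

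Between generations 23 and 22, whose libraries also enter the comparisons above, 7 members fell and 2 rose, against 18.2% of all genes called (9.63% lower, 8.53% higher). The median member difference was 0.002. Mrpl17, whose bacterial homologue lies near the polypeptide exit tunnel, fell by 0.083 (edgeR adjusted p = 0.00556). Mrpl10 fell further, by 0.079, Mrps16 by 0.071, Mrpl57 by 0.07, Mrpl2 by 0.052, Mrpl52 by 0.051 and Mrpl37 by 0.043. Mrps6 rose by 0.093 (SE 0.033, edgeR adjusted p = 0.034) and Mrpl21 by 0.049 (edgeR adjusted p = 0.014).

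Cell type markers moved between the same groups. Of 10 cortical markers 9 were higher in generation 23 than in generation 21, and 5 were higher and 1 lower in generation 22. Of 9 thalamic markers 8 and 9 were lower. Of 11 spiny neuron markers 6 were lower in generation 23, and 1 was higher and 1 lower in generation 22. Between generations 23 and 21, 5 of 9 astrocyte markers were lower and 1 higher, 5 of 8 oligodendrocyte markers lower and 1 higher, and 6 of 8 microglia markers lower and 1 higher. Of 10 vascular and fibroblast markers 6 were lower and 1 higher, and 6 of 7 ependyma, 4 of 5 blood and 2 of 8 choroid plexus markers were lower. Between generations 22 and 21, 5 astrocyte, 4 oligodendrocyte, 3 microglia, 4 vascular and fibroblast, 4 ependyma and 3 blood markers were lower. In the same comparison 2 astrocyte, 1 oligodendrocyte and 1 microglia markers were higher. The part of cell composition in the members' differences was not tested beyond the fits that follow. When 6 marker list scores were added to the fit, 41 members fell and 6 rose between generations 23 and 21, and 41 fell and 5 rose between generations 22 and 21. The lists were cortical, thalamic, choroid plexus, oligodendrocyte, astrocyte, and vascular and fibroblast. Spiny neuron, ependyma, microglia and blood scores were not in that fit, so it makes no allowance for them. Without the 29 libraries that stood apart, 43 fell and 8 rose, and 40 fell and 5 rose. Without the libraries against their sex label, 49 fell and 7 rose between generations 23 and 21. With total count and mitochondrial share as covariates, 47 fell and 7 rose. What part handling of the tissue or the RNA had in these differences was not tested.

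In both comparisons with generation 21, the signed log2 difference went with summed exon length, shorter members tending to be lower. Across the 78 members, Spearman's rho between summed exon length and the log2 difference was 0.52 for generation 23 against 21 and 0.59 for generation 22 against 21. Across 16055 protein-coding genes tested the values were 0.27 and 0.31. For generation 23 against 22 rho was 0.01 across members and 0.06 across protein-coding genes. These are correlations across genes, which share libraries and are not independent replicates. Of the 26 shortest members, 607 to 1664 bases, 21 fell between generations 23 and 21, with a median of -0.095. None of them rose, and 0 did at an unadjusted p under 0.05 in edgeR or DESeq2. The 26 members of middle length had 20 lower, 2 higher and a median of -0.057. Of the 26 longest, 3332 to 8631 bases, 9 fell and 6 rose, with a median of -0.020. Over all protein-coding genes tested, the median difference was -0.083 among genes of up to 2682 bases and 0.020 among those of 6649 or more. Of the 4016 genes in the shorter group 50.0% fell and 460 rose, and of the 4012 in the longer group 27.3% fell and 1648 rose. These groups have other length limits than those of the members. The part of length in the members' differences was not tested apart from generation. Of the members that rose, Mrpl50 had 2114 bases of exon and Mrps14 3258, and the other 6 had between 4171 (Mrpl35) and 8152 (Mrpl48).

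**Figure D2:**
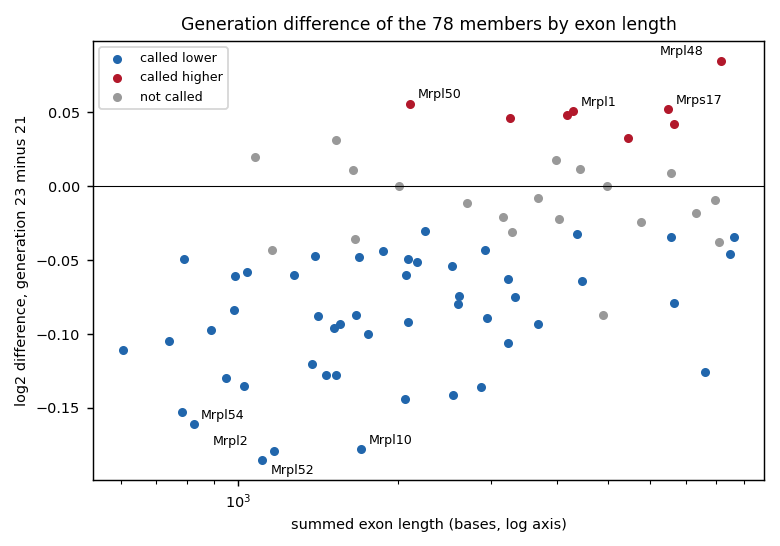
Log2 difference between generations 23 and 21 (vertical axis) against summed exon length in bases (horizontal log axis) for the 78 members, 1 point a gene. Blue, red and grey mark members called lower, called higher and not called. The members that fell most, such as Mrpl52 and Mrpl2, lie on the left, and most of those that rose, such as Mrpl48, lie on the right.

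Other genes of mitochondrial translation gave mixed counts in the comparison of generations 23 and 21. Of 5 mitochondrial ribosomal proteins with other names, 4 fell and 1 rose. Gadd45gip1, a large subunit protein, fell by 0.112 and Aurkaip1, a small subunit protein, by 0.139. Dap3, a GTP-binding small subunit protein, fell by 0.059, while Ptcd3 rose by 0.04. Of 17 translation factors and related proteins, 4 fell and 5 rose, with a median of -0.009. Oxa1l, which inserts newly made proteins into the inner membrane, fell by 0.124 and Tufm, the elongation factor that delivers tRNAs, by 0.071. Lrpprc, which stabilises mitochondrial mRNAs, rose by 0.06 and the initiation factor Mtif2 by 0.069. Of 20 genes for tRNA charging, 9 fell and 4 rose (median -0.03), from Lars2 at -1.218 (SE 0.197) to Mars2 at 0.113. Lars2, which charges the mitochondrial leucine tRNA, had medians of 75.4 and 65.5 CPM in generations 21 and 23 but highest values of 14720 and 815.2 CPM, with 5 libraries of generation 21 above 10 times that generation's median.

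Of 29 assembly factors of the mitochondrial ribosome, 13 fell and 4 rose (median -0.034), with Mpv17l2 at -0.225 and the helicases Ddx28 at -0.139 and Dhx30 at -0.053. Of the 13 mRNAs of mitochondrial DNA, which this ribosome translates, 4 fell and 2 rose (median -0.04). The NADH dehydrogenase subunit mt-Nd6 rose by 0.178 and the ATP synthase subunit mt-Atp6 fell by 0.133. Of 16 regulators of mitochondrial biogenesis, 7 fell and 4 rose (median 0.007). Among them the coactivator Ppargc1b fell by 0.147 and Gabpa, an ETS family factor, rose by 0.142. 71 of 83 cytosolic ribosomal protein genes fell (median -0.176) and none rose in edgeR or DESeq2, with 1 higher at an unadjusted p under 0.05 in each. In the same comparison 70 of 80 nuclear oxidative phosphorylation genes fell and 1 rose (median -0.106). The median member difference was thus nearer 0 than that of either list, a difference that was not tested.

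Members differed by small amounts between female and male libraries. Between the sexes 4 members were higher in females and none lower in edgeR and DESeq2, with 1 lower at an unadjusted p under 0.05 in each, against 2.86% of all genes called (1.55% higher and 1.3% lower in females). In either direction 23 members had an unadjusted p under 0.05 in edgeR, and the median member difference was 0.016, against -0.002 over all genes tested. The estimate was higher in females for 65 of 78 members and lower for 13. Members share the same libraries, so these signs are not independent. Mrpl42, a mitochondria-specific large subunit protein, ran from 10.1 to 18.6 CPM (median 13.9) in females and from 7.88 to 19.1 (median 12.9) in males. The male range covered the female range, and the female median was higher. The log2 difference was 0.081 (SE 0.016, edgeR adjusted p = 0.000435), or 5.75%. Mrpl57 (0.04), Mrpl18 (0.039) and Mrpl19 (0.031) were the other 3, with edgeR adjusted p of 0.0462, 0.0343 and 0.0499. Of these 4 calls 2 were made with limma voom, 1 in edgeR with no filter on low counts and 0 in edgeR within generation 21, 22 or 23 alone. All 4 were made in edgeR without the libraries whose Xist level went against their sex label. No member was called in edgeR's test of the sex by generation interaction, where 0.322% of all genes were. There, 3 members had an unadjusted p under 0.05 in edgeR and 3 in DESeq2, which also called none, and the smallest adjusted p values were 0.533 and 0.618.

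Members varied little between mice. The SD of log2 CPM over 416 libraries had a median of 0.148, from 0.091 for Mrpl37 to 0.419 for Mrpl23. The median over all genes tested was 0.301, and it was 0.208 over the 8953 genes whose mean level lay within the members' range. Counting error alone would give a median SD of about 0.06 for the members. Cytosolic ribosomal protein genes had a median of 0.17 and nuclear oxidative phosphorylation genes 0.147. Sex and generation together took a median of 5.4% of a member's variance, with a maximum of 22.2% for Mrpl2. Adding the same 6 marker list scores as above, which leave out spiny neurons, raised the median to 12.0%.

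**Figure D3:**
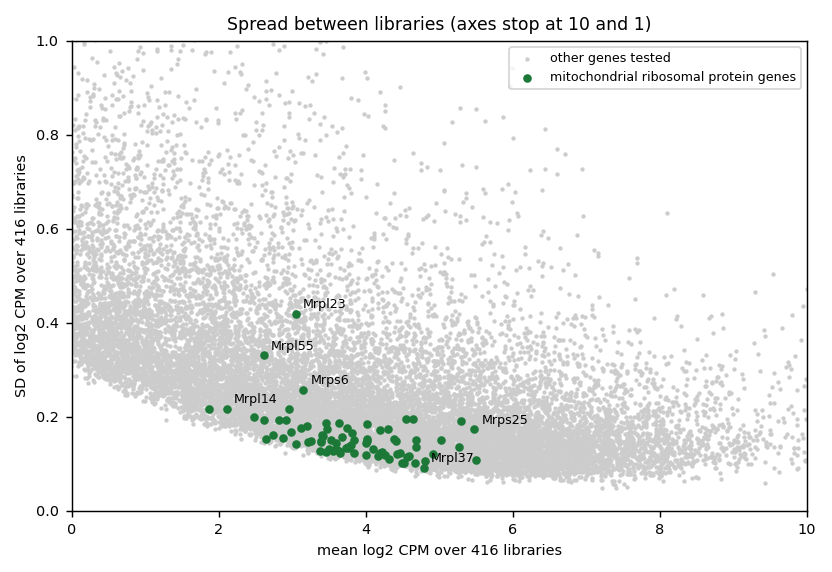
SD of log2 CPM over 416 libraries (vertical axis, shown to 1) against mean log2 CPM (horizontal axis, shown to 10), with the 78 members in green and the other genes tested in grey. Most members lie along the lower edge, with a median SD of 0.148, and Mrpl23, Mrpl55 and Mrps6 stand above it.

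The 6 members of widest spread were Mrpl23 (0.419), Mrpl55 (0.331), Mrps6 (0.257), Mrpl14 (0.217), Mrps12 (0.216) and Mrps28 (0.216). Mrpl55, the counterpart of a bacterial large subunit protein, ran from 3.97 to 11.3 CPM in generation 21, from 3.78 to 10.6 in generation 22 and from 3.42 to 10.5 in generation 23. Its range was about as wide in every generation, with medians of 6.13, 5.82 and 5.68 CPM. Mrps6, a small subunit protein, had medians of 8.53, 8.52 and 9.15 CPM, and its highest value, 31 CPM, was in 1 library of generation 21. Of its exon sequence 30.3% lies within Slc5a3 and Gm49711 on the same strand. The narrowest were Mrpl37 (0.091), Mrpl24 (0.101), Mrpl19 (0.101), Mrpl35 (0.101), Mrps9 (0.105) and Mrpl48 (0.107). Mrpl37, a mitochondria-specific large subunit protein, lay between 23.4 and 36.6 CPM in every library.

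Mrpl23, whose bacterial homologue sits at the exit of the polypeptide tunnel, was the most variable member. Its processed pseudogene Mrpl23-ps1 lies on chromosome 2, and Mrpl23 on chromosome 7. In the reference transcripts of GENCODE release M21 the 441 coding bases of Mrpl23 align to Mrpl23-ps1 with 0 mismatches and 0 gaps. The first 120 coding bases of both are shown because they are identical, so that no letter of this stretch assigns a read to 1 locus in the reference. Stretches of the coding sequence of Mrpl48 and of its pseudogene Mrpl48-ps follow for contrast, with the 7 positions at which they differ in capitals.
Mrpl23 coding sequence: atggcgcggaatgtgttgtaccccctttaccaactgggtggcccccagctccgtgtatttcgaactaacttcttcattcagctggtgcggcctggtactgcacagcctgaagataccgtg
Mrpl23-ps1: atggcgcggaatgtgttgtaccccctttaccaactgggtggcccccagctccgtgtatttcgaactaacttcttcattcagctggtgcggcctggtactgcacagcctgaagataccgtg
Mrpl48 coding sequence: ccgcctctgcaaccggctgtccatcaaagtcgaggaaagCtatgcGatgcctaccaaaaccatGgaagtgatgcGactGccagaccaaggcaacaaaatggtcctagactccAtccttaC
Mrpl48-ps: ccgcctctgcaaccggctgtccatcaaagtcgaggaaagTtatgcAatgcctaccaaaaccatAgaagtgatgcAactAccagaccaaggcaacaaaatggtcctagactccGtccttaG
Over their whole aligned lengths Mrpl48 and Mrpl48-ps had 12 mismatches in 636 bases. Mrps36 was 99.3% identical to Mrps36-ps1, 99% to Mrps36-ps2 and 88.5% to Mrps36-ps3.

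Mrpl23 ran from 3.31 to 17 CPM in generation 21 (median 8.73), from 3.78 to 12.6 in generation 22 (median 8.58) and from 3.98 to 12.8 in generation 23 (median 8.22). Mrpl23-ps1 ran from 0 to 6.96 CPM over all libraries, with medians of 2.58, 0.958 and 1.6 CPM. It was at 0 in 29, 36 and 41 libraries of generations 21, 22 and 23. Libraries with more counts on the pseudogene had fewer on the gene. Over 416 libraries, Pearson's r between the log2 CPM of gene and pseudogene was -0.78 and Spearman's rho was -0.86, and r was -0.77, -0.82 and -0.83 within generations 21, 22 and 23. Leaving out the 2 libraries farthest from the pseudogene's median left r at -0.78. The 2 values come from the same library, and how the authors' counting divided reads of identical sequence is not given in the sources used here. The sum of gene and pseudogene ran from 7.38 to 17 CPM (median 10.4), and the SD of log2 CPM without a prior count was 0.422 for the gene and 0.168 for the sum. The pseudogene's share of the sum ran from 0 to 65.8%, with a median of 17.5%. Mrpl23 taken alone is therefore an uncertain measure of the gene's expression. Mrpl23 was not called between generations 23 and 21 (-0.087, SE 0.047, edgeR adjusted p = 0.102). The sum had means of 11.2 ± 1.35 CPM (SD, n = 150), 10.2 ± 1.06 and 10.2 ± 0.991 in generations 21, 22 and 23. With both counted as 1 row, a fit chosen after the data were seen, the row was lower in generation 23 than in generation 21, at a log2 difference of -0.144 (SE 0.018, edgeR adjusted p = 9.4e-14). It was also lower in generation 22 than in generation 21, at -0.138 (SE 0.019, edgeR adjusted p = 2.59e-11), and the difference between generations 23 and 22 was -0.006 (edgeR adjusted p = 0.874).

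**Figure D4:**
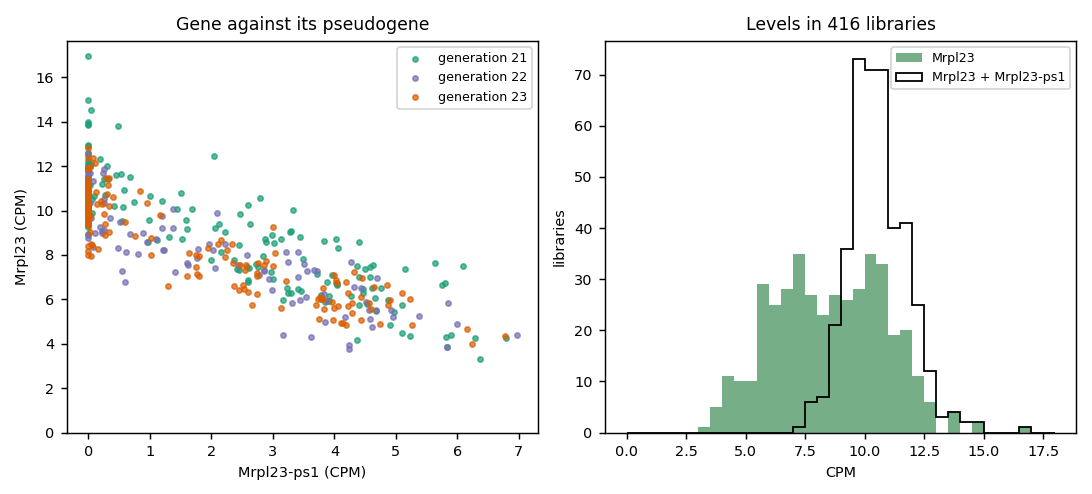
Left, Mrpl23 (vertical axis, CPM) against Mrpl23-ps1 (horizontal axis, CPM) in 416 libraries, coloured by generation. Right, number of libraries by CPM for Mrpl23 alone (filled) and for the sum of both (line), where the sum is narrower, with an SD of log2 CPM of 0.168 against 0.422.

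The other pseudogenes held few counts. Mrpl48-ps reached 0.0688 CPM at most, while Mrpl48 ran from 32.8 to 55.8 CPM. Mrps36-ps1 reached 0.168 and Mrps36-ps2 0.924 CPM, Mrps36-ps3 was at 0 in all 416 libraries, and Mrps36 ran from 7.49 to 15 CPM. Mrps36 is also known as a subunit of the oxoglutarate dehydrogenase complex.

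Members co-varied weakly across mice. Over the 3003 pairs of members, Pearson's r of log2 CPM over 416 libraries had a median of 0.133, ran from -0.271 to 0.57, was positive in 84.1% of pairs and was above 0.5 in 10. The median was 0.511 among nuclear oxidative phosphorylation genes, 0.337 among cytosolic ribosomal protein genes and -0.001 over all pairs of genes tested. By symbol, pairs within the large subunit (0.137), within the small subunit (0.121) and across the subunits (0.132) had like medians. After removal of sex and generation the median was 0.118, and after removal of 6 marker scores as well it was 0.122. All these correlations share the same libraries, with their depth, composition and handling, and they are given as a description. The first principal component of the members held 19.5% of their standardised variance and the next 5.83%.

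Mrpl12 followed the other members most closely, with r of 0.693 to the mean of the rest. Mrps23 (0.625), Mrpl20 (0.62), Mrps24 (0.603), Mrps21 (0.602) and Mrpl11 (0.596) came next, against a median of 0.42. The 3 highest pairs all held Mrpl12, with Mrpl28 at 0.57, Mrps24 next and Mrpl43 at 0.536. The first of these was 0.678 within generation 21, 0.293 within generation 22 and 0.253 within generation 23. At the other end, Mrpl1 had r of -0.17 to the rest, Mrpl48 -0.101, Mrpl50 -0.028, Mrps17 0.017, Mrps9 0.031 and Mrps22 0.06. Mrpl1, Mrpl48, Mrpl50 and Mrps17 were also among the members that rose from generation 21 to 23, and both descriptions use the same libraries.

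The mean log2 CPM over members was 3.85 ± 0.064 (SD, n = 150) in generation 21, 3.798 ± 0.059 in generation 22 and 3.797 ± 0.041 in generation 23, and over all libraries it ran from 3.56 to 4.101. It went with the mean of the nuclear oxidative phosphorylation genes at r = 0.857 over 416 libraries (0.83, 0.886 and 0.715 within generations 21, 22 and 23). Spearman's rho was 0.771, and r was 0.848 without the 2 libraries farthest from the median. For the assembly factors r was 0.612 and for the cytosolic ribosomal protein genes 0.539. The mitochondrial share of counts had r of 0.071, which was -0.385, 0.538 and 0.241 within the generations and so did not keep 1 sign. A library's median correlation with the other libraries had r of -0.298 overall and of -0.476, 0.014 and 0.011 within the generations. For log2 total count r was 0.253. Among marker scores r was 0.252 for the thalamic list (0.338, 0.054 and 0.01 within the generations), 0.24 for astrocytes and 0.225 for microglia, and between -0.137 (spiny neurons) and 0.163 (blood) for the other 7. Spearman's rho was 0.045 for the thalamic list, 0.148 for astrocytes and 0.211 for microglia. Astrocytes had r of 0.288, 0.103 and -0.085 within the generations. For spiny neurons rho was 0.242, of the other sign than r, and r was 0.011 without the 2 libraries farthest from the median.

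Promoter sequences were compared as a feature that the choice of members did not use. RefSeq windows of build GRCm38.p6, 250 bases before to 50 bases after the start, were found for 69 members, 75 windows in all. In 66 of these windows, 20 bases after the start were found on the sense strand of a transcript of the gene. The remaining windows were kept in the percentages below. The letters CCGGAAG, the core of the site bound by ETS family factors such as GABPA, stood on either strand in 34.7% of member windows, in 14.6% of 15768 windows of protein-coding genes tested and in 8.86% of all 32851 windows. The YY1 core AAGATGG stood in 17.3%, 6.42% and 6.34%, and the NRF1 core GCATGCG in 10.7%, 5.5% and 3.58%. In the same order, the E-box CACGTG stood in 9.33%, 9.13% and 7.15% of windows and CCAAT in 40%, 37.1% and 37.4%. The GC box GGGCGG stood in 52%, 57.7% and 35.7%, and TATAAA in 6.67%, 7.9% and 13.6%. A match is a string of letters and not evidence of a bound site. Of the 6 members closest to the rest, Mrps21 and Mrps23 held the ETS core, and of the 6 least close, Mrpl48 and Mrps22. Sequences of the 250 bases before the start, read 5′ to 3′ on the gene's strand with motif matches in capitals, follow for 4 members. Mrpl12 and Mrpl1 are shown as the members closest to and farthest from the rest, and Mrpl52 and Mrpl22 as 2 of the 4 members with at least 2 of the ETS, YY1 and NRF1 cores.
Mrpl12, chr11:120484387-120484636, + strand: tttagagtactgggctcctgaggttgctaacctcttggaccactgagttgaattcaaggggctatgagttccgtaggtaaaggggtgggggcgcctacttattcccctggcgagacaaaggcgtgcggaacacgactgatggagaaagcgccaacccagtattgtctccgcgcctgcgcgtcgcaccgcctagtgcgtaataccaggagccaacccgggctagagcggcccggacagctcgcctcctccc
Mrpl1, chr5:96209865-96210114, + strand: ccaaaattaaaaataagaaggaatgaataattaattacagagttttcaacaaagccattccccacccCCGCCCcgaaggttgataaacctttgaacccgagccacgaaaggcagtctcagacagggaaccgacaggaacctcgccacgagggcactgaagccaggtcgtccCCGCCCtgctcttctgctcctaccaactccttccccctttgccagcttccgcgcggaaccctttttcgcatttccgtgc
Mrpl52, chr14:54426659-54426908, + strand: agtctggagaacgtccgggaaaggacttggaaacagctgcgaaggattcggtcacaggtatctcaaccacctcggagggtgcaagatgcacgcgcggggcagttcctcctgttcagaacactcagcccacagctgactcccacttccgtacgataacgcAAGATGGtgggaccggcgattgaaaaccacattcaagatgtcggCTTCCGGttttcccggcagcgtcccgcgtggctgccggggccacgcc
Mrpl22, chr11:58171414-58171663, + strand: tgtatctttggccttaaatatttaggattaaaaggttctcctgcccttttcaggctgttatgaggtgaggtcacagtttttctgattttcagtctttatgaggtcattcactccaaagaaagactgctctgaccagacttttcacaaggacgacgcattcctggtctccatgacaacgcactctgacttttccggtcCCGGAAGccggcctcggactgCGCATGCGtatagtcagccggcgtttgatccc
Mrpl12 held none of the 7 motifs in these 250 bases and Mrpl1 only the GC box. Mrpl52, the member that fell most between generations 23 and 21, held the ETS and YY1 cores, and Mrpl22 the NRF1 and ETS cores. No motif or combination was tested against expression.

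For 19 of the 78 members (24.4%), the gene off the list that was most alike across libraries lay near, on the same chromosome with at most 50 protein-coding genes between. Over all genes tested the share was 31.1%. The likeness was the size of Spearman's rho over 416 libraries, and it ran from 0.3 to 0.86 with a median of 0.48. Over all genes tested, where any other gene could be the most alike, the median was 0.51. These 19 members had a median SD of 0.173 and a median r with the other members of 0.229, against 0.145 and 0.441 for the other 59. Mrpl55 went with 2610507I01Rik (rho 0.74), with no protein-coding gene between them. Mrps6 went with the overlapping Slc5a3 (0.64), and Mrpl10 with Rpl19 (0.55). Mrpl12 had its likeness elsewhere, with Gapdh at 0.66, as had Mrpl52 with Rps29 (0.65), Mrps33 with Atp5l (0.58) and Mrpl42 with Cox7b (0.55). An oxidative phosphorylation gene was among the 3 most alike genes of 19 members, a cytosolic ribosomal protein gene of 4 and Gapdh of 7. The like shares over all genes tested were not computed, so these counts cannot be read as particular to the members. Mrps11 and Mrpl46, neighbours that start from opposite strands of 1 region, had r of 0.245. The genes named here were picked as examples after their values were seen.

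A rule for 2 levels was met by 3 members, Mrps25, Mrps17 and Mrpl17, of which Mrpl17 showed no clear gap. The rule fitted 1 and 2 normal components to log2 CPM and required a gain of at least 10 in the Bayesian information criterion (BIC), a share of at least 0.05 of libraries in the smaller component and a separation above 2, in genes whose log2 CPM averaged 1 or more, as that of all 78 members did. It was met by 3 of 78 members, by 3.6% of all genes tested and by 5.53% of the 14963 genes at that mean level. Within single generations Mrps17 met it in each, Mrps25 in generations 21 and 23 and Mrpl17 in none. Mrps25, a mitochondria-specific small subunit protein, had component means of 42.2 and 53.5 CPM, a ratio of 1.27, with 22% of libraries in the higher one. Its separation was 3.76 and its BIC gain 82.3. The higher level was assigned to 29 libraries (19.3%) of generation 21, 28 (23.5%) of generation 22 and 32 (21.8%) of generation 23, with 50 of 416 unclear at a certainty of 0.95. By this fit to all libraries together, libraries were assigned to both levels in every generation. The 3 genes most alike were 4930590J08Rik (rho 0.43, 2 protein-coding genes away), Gm19265 (0.31) and Gm43309 (0.3), all on chromosome 6 with Mrps25. Of the Mrps25 exon sequence 69.8% lies opposite Nr2c2.

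Mrps17, a small subunit protein with a bacterial homologue, had means of 32.1 and 41.6 CPM, a ratio of 1.3, with 21.6% of libraries in the lower component, a separation of 2.75 and a BIC gain of 177.8. The lower level was assigned to 34 libraries of generation 21, 24 of generation 22 and 21 of generation 23, with 65 unclear. Its most alike genes, Zfp11 (rho 0.39), Piwil1 (-0.37) and Glt1d1 (0.34), lie on chromosome 5 with it, with 1, 8 and 11 protein-coding genes between. Mrpl17 had means of 21.3 and 26 CPM, a ratio of 1.22, a separation of 2.18, which is below the alternative limit of 2.5, and a BIC gain of 17. The higher level was assigned to 55.3%, 50.4% and 30.6% of libraries in generations 21, 22 and 23, but 83, 70 and 88 libraries were unclear. Its most alike genes, all close by on chromosome 7, were Gm4759 (0.66), Gm8979 (0.56) and the cadherin gene Dchs1 (0.55). Genotypes were not used here.

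**Figure D5:**
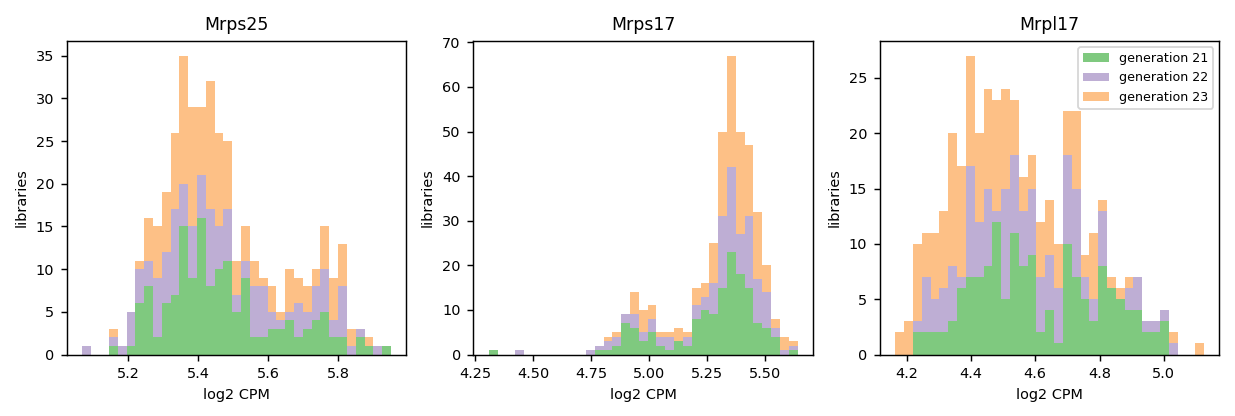
Number of libraries (vertical axis) by log2 CPM (horizontal axis) for Mrps25, Mrps17 and Mrpl17, stacked by generation. Mrps25 has a smaller group of libraries on the right and Mrps17 one on the left, and Mrpl17 shows no clear gap. By the fit to all libraries, both smaller groups hold libraries of every generation.

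A further 21 members missed the rule by 1 criterion, 10 by the BIC gain, 7 by the separation and 4 by the share of libraries. Mrpl55 (BIC gain 5.0, separation 2.37) was among the first and Mrpl23 (BIC gain 30.5, separation 1.69) among those that missed the separation. The 4 that missed the share were Mrpl13 (4.46% of libraries in the lower component, separation 3.35), Mrpl12 (2.17% in the higher, separation 3.54), Mrpl30 and Mrpl28. Mrpl30 had 1.2% of libraries at a mean of 11.8 CPM against 21.4 CPM in the others, with a separation of 9.31. Mrpl28, a large subunit protein, had 0.721% of libraries at a mean of 21.7 CPM against 12.7 CPM. With sex, generation and 6 marker scores removed, 5 members met the rule, the 3 above with Mrpl13 and Mrpl55. None passed the limit set for the bimodality coefficient, with Mrps17 nearest at 0.546.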

How the data were processed

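Total RNA from the striatum of 416 mice, dissected after a soak in RNAlater, was depleted of ribosomal RNA and sequenced as stranded paired reads, per the labels' protocols. The authors deposited a table of estimated counts per gene, not normalized, of which 23.8% were not whole. The aligner, counter, genome build and strand setting are not given in the sources used here. Estimated counts were rounded, which moved 0.005% of the total count. Of 46517 gene IDs, 46005 (98.9%) matched GENCODE M21, which gave symbols, biotypes and exon lengths. Genes were kept by filterByExpr (minimum count 10, 6 sex by generation groups), which left 22968. Differences were fitted with edgeR 4.0.16 (R 4.3.3, TMM factors, robust quasi-likelihood, sex and generation as terms) and adjusted over all genes tested by Benjamini-Hochberg, with calls at 0.05. DESeq2 1.42.0 and limma voom 3.58.1 were alternatives. Log2 CPM used a prior count of 2. On simulated counts for generation 23 minus 21 over 6000 genes, edgeR recovered 40 of 50 genes changed 1.1-fold and 50 of 50 changed 1.2-fold. The simulation gave every gene the same dispersion and changed a small share of genes, unlike these data. Its smallest change was larger than the median member difference, so recovery of smaller changes was not tested.

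Libraries were grouped by their sex and generation labels, and no library was left out of the main fits. Low libraries had a total under 0.5 of the median or a median correlation more than 4 scaled median absolute deviations below the median, and the sex check used 100 CPM of Xist. Each library is a separate mouse, and no pair of libraries held identical values. Members and gene lists were chosen with earlier results of these data known. Named members are, per comparison, up to 8 a direction with the largest difference among those called with 1 sign in both sexes, and up to 5 for sex. The 6 widest and 6 narrowest in spread, the 6 highest and 6 lowest in correlation with the rest, the 3 highest pairs and members with 2 levels were also named, as were up to 4 genes a list. Where other genes are named, this is said. Promoter windows were searched on both strands for 7 motifs.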

Additional observations from a re-analysis of the deposited data

How the results depend on the processing

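The counts of members that fell from generation 21 held under all alternatives run, which were DESeq2, size factors, filters, covariates, each sex alone, limma voom and the libraries left out. Between generations 23 and 21 they ran from 41 to 52, and between generations 22 and 21 from 37 to 49. Of the 8 members that rose between generations 23 and 21, 3 did so in females alone, and of the 5 between generations 22 and 21, 1 did. A pair of members changed sign, Mrpl24 with 6 marker scores and Mrpl3 in females alone. Between generations 23 and 22 the 9 calls became 3 in females alone and 3 in males alone, with 3 and 2 lower and 0 and 1 higher. The 2 higher became 5 with total count and mitochondrial share as covariates and 6 without the libraries of low total or correlation. The 4 members higher in females became 1 with no filter, 2 with limma voom and 0 in generation 21, 22 or 23 alone. The 3 members that met the rule for 2 levels became 5 on residuals of sex, generation and 6 marker scores, 2 with a separation above 2.5, where Mrpl17 no longer met it, and 0 by the bimodality coefficient. The SD of Mrpl23 was 0.168 with its pseudogene's counts added, against 0.422 alone, and Mrpl23, not called between generations 23 and 21 or 22 and 21, was called lower in both with them added (-0.144 and -0.138). This sum, the split by length, the members without Mrpl12 and those with no near most alike gene were alternatives chosen after the data were seen. The median SD of members ran from 0.139 to 0.148 and their median pairwise r from 0.118 to 0.133. The cause of these changes was not tested. Fits of 1 sex or 1 generation also hold fewer libraries, and the effect of that was not tested either. No paired analysis was possible because the labels number animals one by one and no number is shared between groups.

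Counting error gives members a median SD of 0.06 against the measured 0.148, and 0.117 of 0.216 for Mrps28, and the members' mean had r of 0.253 with log2 total count. Generation is confounded with cohort and handling. Counting of reads shared by Mrpl23 and Mrpl23-ps1, or by overlapping genes, is not known. The correlations describe these libraries and share their depth and composition.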
